A study of Mus musculus with 8 samples.

Results

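The aryl hydrocarbon receptor and its classical target genes were examined in enterocytes of IE-Cpr-null mice and wild-type (WT) littermates. The genes were Cyp1a1, Cyp1a2, Cyp1b1, Ahr, Ahrr, Tiparp, Nqo1, Aldh3a1 and Nfe2l2, and every probe set of the array annotated with 1 of these symbols alone was taken. This gave 11 of the 18443 probe sets, for 8 of the 9 genes, among 10401 genes named on the array. No probe set carried the symbol Ahrr alone, so this gene was not analysed here. Ahr had 2 probe sets, Tiparp 3 and each of the other 6 genes 1.

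In IE-Cpr-null mice the epithelium of the intestine is without NADPH-cytochrome P450 reductase, or Cpr. The labels do not name the Cre transgene; the line is known as one in which a villin promoter drives Cre in that epithelium. All mice were C57BL/6 males aged 2.5 to 3.0 months with free access to a standard diet and no drug treatment in the labels. Enterocytes, the absorptive cells of the small intestine, were isolated and each single-colour array carried RNA pooled from 2 mice of 1 genotype, which left n = 4 pools for WT and n = 4 for IE-Cpr-null. A p-value therefore measures the spread between pools. Values are log2 signals set against the WT median of each probe set, so no expression level is known, differences are IE-Cpr-null minus WT, and levels cannot be compared between genes. Of 8 listed enterocyte markers 6 were measured and their mean lay between -0.03 and 0.03 in WT pools and between -0.10 and -0.003 in IE-Cpr-null pools. Centred values cannot show whether a marker is present. The transcript of the deleted gene was not analysed here, and fewer cells of a type cannot be told apart from less RNA per cell in bulk samples.

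The aryl hydrocarbon receptor, encoded by Ahr, is a transcription factor held in the cytoplasm until it binds a ligand, after which it pairs with Arnt in the nucleus and binds DNA at short response elements. In the intestine its ligands come from food plants, from bacterial breakdown of tryptophan and from pollutants, and P450 enzymes of family 1, its best known targets, oxidise many of those same ligands. All microsomal P450 enzymes take their electrons from Cpr, so that enterocytes without Cpr can hold P450 transcripts while their enzymes are not supplied with electrons.

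Both Cyp1a genes lay far above WT on every IE-Cpr-null array, while Cyp1b1, the receptor gene and the other targets measured here differed by at most 0.42 in either direction. The difference was 5.47 for Cyp1a2, or 44.5-fold (SE 0.591), and 1.91 for Cyp1a1, or 3.77-fold (SE 0.26). Neither difference passed the threshold of 0.05 after adjustment over all probe sets (limma adjusted p = 0.0677 for Cyp1a2 and 0.125 for Cyp1a1), so 0 of the 11 probe sets were called, against 0.0163% of all probe sets called as higher and 0.00542% called as lower. At an unadjusted p under 0.05 in limma, 2 of the 11 qualified, against 7.4% of all probe sets. The same 2 were the only ones of the 11 whose groups did not overlap, both of them higher (1.64% of all probe sets), and 0 were separated downwards (2.47% of all probe sets).

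**Figure D1:**
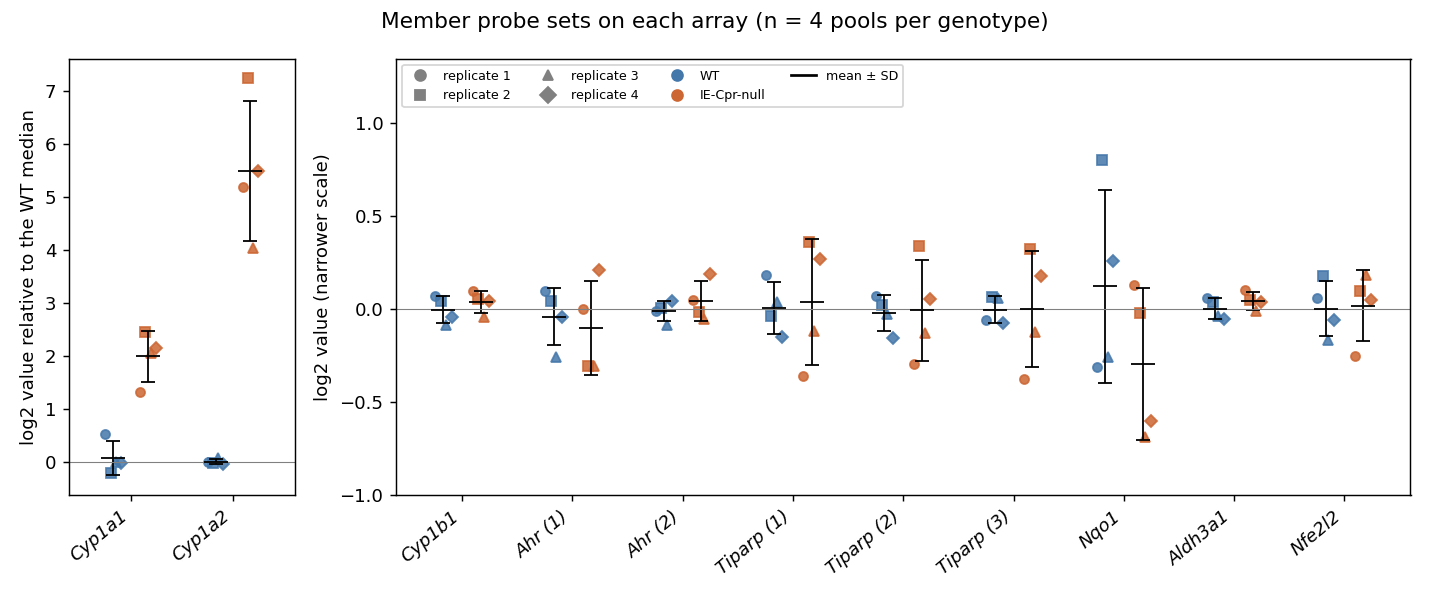
Log2 value of each member probe set on each of the 8 arrays, set against the WT median (left panel Cyp1a1 and Cyp1a2, right panel the other 9 probe sets on a narrower scale, numbers in brackets marking probe sets of 1 gene). Points are arrays (shape marks the replicate number), blue for WT and orange for IE-Cpr-null, with black bars for mean ± SD (n = 4); the orange points of both Cyp1a genes lie above all blue points, and in the right panel the colours overlap for every probe set.

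Cyp1a2 encodes a P450 that is abundant in liver and oxidises aromatic amines and caffeine. Its probe set, of Entrez gene 13077, read 0.004, -0.004, 0.08 and -0.03 on WT replicates 1 to 4, and 5.19, 7.23, 4.04 and 5.49 on IE-Cpr-null replicates 1 to 4. Every IE-Cpr-null array was at least 4.04 above the WT median, and the WT arrays lay close together (SD 0.0498, n = 4) while the IE-Cpr-null arrays were spread widely (SD 1.32, n = 4). The IE-Cpr-null SD was 26.5 times the WT SD. A WT SD below this one was found in 25.5% of all probe sets and an IE-Cpr-null SD below this one in 99% of them. The 95% confidence interval of the difference ran from 4.10 to 6.85. Only 3 of the 18443 probe sets had a larger absolute difference, and among 10401 genes, each as the mean of its probe sets, 0 had one (gene-level limma adjusted p = 0.0537). Among those 3 was a probe set of the metallothionein gene Mt1 (7.29), which has another at 3.00. The rank of Cyp1a2 among genes thus depends on that averaging. An exact permutation test gave p = 0.0286 for Cyp1a2, two-sided, the smallest that 4 against 4 arrays allow.

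Cyp1a1 encodes the P450 most strongly induced by the receptor in most tissues, including the intestine, where it oxidises polycyclic aromatic hydrocarbons and plant-derived receptor ligands. Its probe set, of Entrez gene 13076, read 0.54, -0.21, 0.02 and -0.02 on WT replicates 1 to 4. On IE-Cpr-null replicates 1 to 4 it read 1.32, 2.45, 2.07 and 2.16. The highest WT array, replicate 1, stayed below the lowest IE-Cpr-null array, also replicate 1. The WT spread of Cyp1a1 was wide (SD 0.321, above that of 92.9% of probe sets), unlike that of Cyp1a2. The interval of the difference ran from 1.31 to 2.52 (exact permutation p = 0.0286), and 70 probe sets had a larger absolute difference.

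Replicate 2 was the highest IE-Cpr-null array for both Cyp1a genes, but the lowest differed, replicate 3 for Cyp1a2 and replicate 1 for Cyp1a1. Per array, the Cyp1a2 value exceeded that of Cyp1a1 by 3.87, 4.78, 1.97 and 3.33 on IE-Cpr-null replicates 1 to 4, against -0.54, 0.20, 0.07 and -0.02 on WT replicates 1 to 4. The change relative to WT was thus larger for Cyp1a2 on each IE-Cpr-null array. These are changes of each gene from its own WT median and say nothing of which transcript was the more abundant.

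Leaving out single arrays moved the calls of both genes. Cyp1a2 passed in limma without IE-Cpr-null replicate 2 (difference 4.89, adjusted p = 0.0134) and without replicate 3 (5.96, adjusted p = 0.0494), and Cyp1a1 passed without IE-Cpr-null replicate 1 (2.14, adjusted p = 0.0366). Over 18 settings the Cyp1a2 difference stayed between 3.80 and 5.96, with an adjusted p from 5.12e-05 to 0.893, and over 17 settings that of Cyp1a1 stayed between 1.65 and 2.14, with an adjusted p from 0.00265 to 0.97.

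Hepatocytes carry much Cyp1a2, so transcripts of that cell type were read beside it. Of 10 listed hepatocyte markers 8 were measured and 7 were higher in IE-Cpr-null, 0 of them past the limma threshold, and 0 had an unadjusted p under 0.05 (8.69% of all genes did). Their mean was 5.18 and 3.23 on IE-Cpr-null replicates 2 and 3, 0.06 and 0.17 on replicates 1 and 4, and -0.09 to 0.28 on the WT arrays. Alb, the albumin gene, read 9.32 and 7.91 on replicates 2 and 3, with 0.04 on replicate 1 and 1.40 on replicate 4. It also read 1.70 on WT replicate 2. Cyp2e1, a liver P450, read 8.11 and 6.06 on IE-Cpr-null replicates 2 and 3, with 0.37 on replicate 1 and 0.02 on replicate 4. The list was not uniform. Cps1, the 1 marker lower in IE-Cpr-null, read -0.81 and -0.46 on IE-Cpr-null replicates 2 and 3. Ahsg read 5.64 on IE-Cpr-null replicate 2 but 0.09 on replicate 3. Cyp1a2 read 5.19 and 5.49 on replicates 1 and 4, where the hepatocyte mean was near the WT median. On the hepatocyte-rich replicates 2 and 3 it read 7.23 and 4.04, the highest and lowest of the group. The part of hepatocyte transcripts in these values was not tested. Without replicates 2 and 3 the Cyp1a2 difference was 5.32 and passed (limma adjusted p = 5.12e-05), with only 2 IE-Cpr-null arrays left. Replicates 2 and 3 held both extremes of Cyp1a2, so leaving them out narrowed the spread. The smaller p is therefore not stronger evidence. The Cyp1a1 difference was 1.65 without replicates 2 and 3 and did not pass (adjusted p = 0.399).

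**Figure D2:**
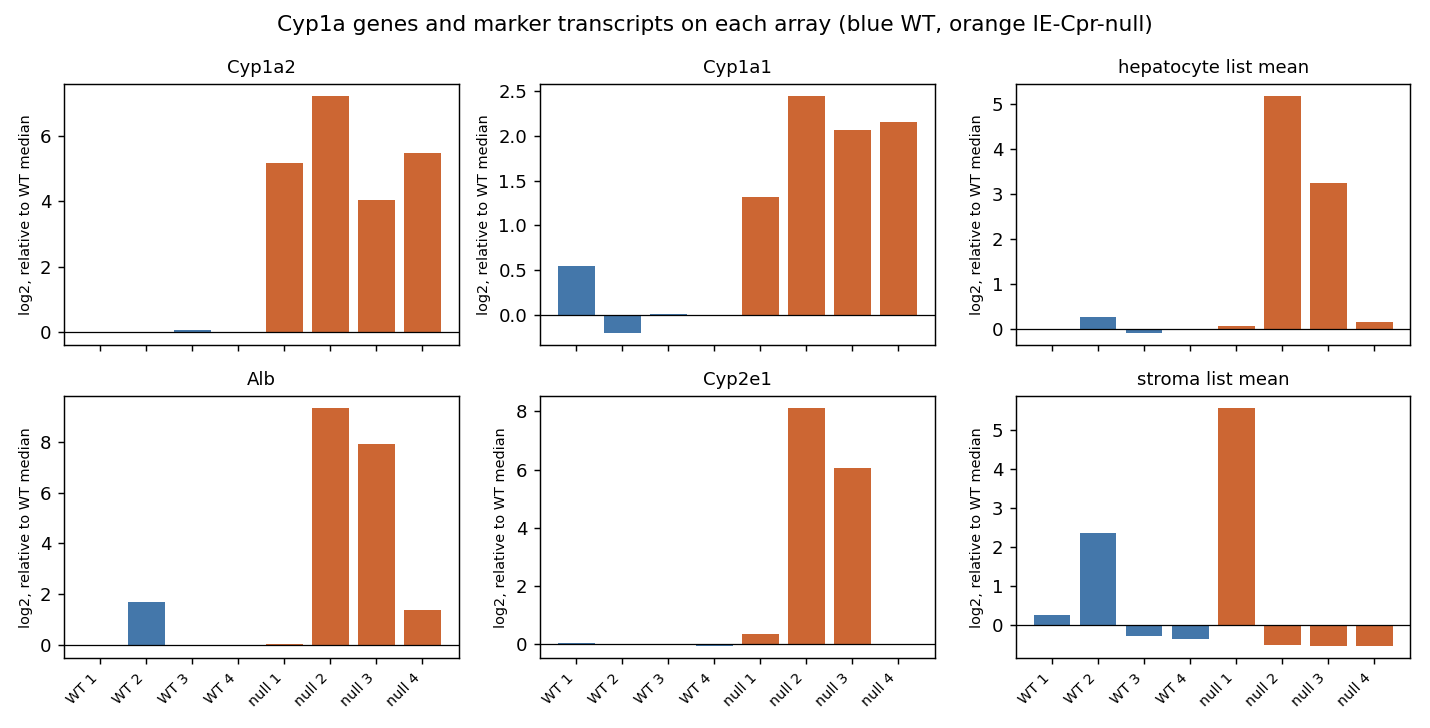
Log2 values relative to the WT median on the 8 arrays (bars, blue WT and orange IE-Cpr-null, replicates 1 to 4 in order) for Cyp1a2, Cyp1a1, the mean of 8 hepatocyte markers, Alb, Cyp2e1 and the mean of 8 smooth muscle and stroma markers. Cyp1a2 is at least 4.04 on all 4 IE-Cpr-null arrays. The hepatocyte mean is high on IE-Cpr-null replicates 2 and 3 (5.18 and 3.23). The smooth muscle and stroma mean is high on IE-Cpr-null replicate 1 (5.55) and WT replicate 2 (2.37).

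Other cell types also varied between pools. Smooth muscle and stroma markers had a mean of 5.55 on IE-Cpr-null replicate 1, the array with the lowest Cyp1a1 value, and of 2.37 on WT replicate 2, the array with the lowest WT Cyp1a1 value, against -0.54 to 0.27 elsewhere. The collagen genes of the list, Col1a1 and Col3a1, read 1.21 and 1.02 on IE-Cpr-null replicate 1 and 0.02 and 0.25 on WT replicate 2. On both arrays they lay below every smooth muscle gene of the list. Without both arrays the differences were 2.04 for Cyp1a1 and 5.57 for Cyp1a2, and neither passed in limma (adjusted p = 0.0669 and 0.17). Pancreatic acinar markers had means from -4.74 to -1.98 in IE-Cpr-null pools and from -4.63 to 1.66 in WT pools. All 4 measured were lower in IE-Cpr-null, with a median difference of -3.68 and 0 past the limma threshold. At an unadjusted p under 0.05 in limma were 2, Cela1 and Prss2, against 8.69% of all genes. WT replicate 3, which held the lowest WT acinar mean (-4.63), read 0.02 for Cyp1a1 and 0.08 for Cyp1a2, near the WT median. All 5 measured macrophage and dendritic markers were lower in IE-Cpr-null, with a median difference of -0.48, while 57.6% of all genes were higher. Past the limma threshold were 0, and 1, Itgax, had an unadjusted p under 0.05 (8.69% of all genes did). The mean of the 5 markers ran from -0.24 to 0.48 in WT pools and from -0.70 to -0.10 in IE-Cpr-null pools. The lymphocyte mean ran from -0.09 to 0.03 in WT and from -0.04 to 0.19 in IE-Cpr-null, and Tek, the single endothelial marker measured, from -0.05 to 0.06 and from -0.01 to 0.08. The part of hepatocyte, acinar, stromal and macrophage transcripts in the Cyp1a differences was not tested further.

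Cyp1a1 and Cyp1a2 are neighbours on mouse chromosome 9, transcribed away from each other, with 0 other protein-coding genes between them in the RefSeq gene table. Because both were high on the IE-Cpr-null arrays, the 250 bases before each start site are printed, with those of Cyp1b1, the family 1 member that was not. Capitals mark GCGTG on the printed strand or its reverse complement CACGC, the core of the receptor's response element, and TATAAA on the printed strand. Sequences are from RefSeq, build GRCm38.p6, at chr9:57697363-57697612 on the plus strand, chr9:57683656-57683905 on the minus strand and chr17:79715062-79715311 on the minus strand, each written 5′ to 3′ in the direction of the gene.
Cyp1a1: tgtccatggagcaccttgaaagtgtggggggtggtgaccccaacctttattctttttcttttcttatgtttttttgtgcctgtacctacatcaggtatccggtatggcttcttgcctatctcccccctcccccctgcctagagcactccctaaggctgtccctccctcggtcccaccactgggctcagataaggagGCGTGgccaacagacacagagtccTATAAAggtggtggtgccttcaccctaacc
Cyp1a2: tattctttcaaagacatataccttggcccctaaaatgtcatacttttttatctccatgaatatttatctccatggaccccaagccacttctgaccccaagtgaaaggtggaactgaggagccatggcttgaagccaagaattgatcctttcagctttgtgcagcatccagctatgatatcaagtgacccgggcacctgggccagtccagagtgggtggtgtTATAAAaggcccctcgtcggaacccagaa
Cyp1b1: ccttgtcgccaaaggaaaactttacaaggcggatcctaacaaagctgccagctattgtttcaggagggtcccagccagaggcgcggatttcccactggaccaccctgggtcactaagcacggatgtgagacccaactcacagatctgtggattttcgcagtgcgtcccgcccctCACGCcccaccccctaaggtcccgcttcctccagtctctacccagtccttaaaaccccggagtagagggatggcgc

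Cyp1a1 held 1 GCGTG, beginning 54 bases before the start site, and a TATAAA beginning 30 bases before it. Cyp1a2 held a TATAAA beginning 29 bases before the start site and 0 matches to GCGTG in this window. Cyp1b1 held 1 match to GCGTG, on the reverse strand, and 0 to TATAAA. The table had promoters for 7 of the 9 genes; Ahr and Aldh3a1 had no entry. Tiparp held 1 match to GCGTG, Nqo1 and Nfe2l2 held 0, and Ahrr, which had no probe set with its symbol alone, held 3. The core is short and 28.2% of the 32851 RefSeq promoters of this length held it on either strand. The longer form TNGCGTG, which contains the core, was in 4.1% of promoters and among these genes in that of Ahrr alone. A match is a description of the letters, and elements farther from the start site lie outside the window.

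The nearest measured protein-coding genes on each side of the pair differed by at most 0.20 in either direction. On the Cyp1a2 side, Csk, which encodes a kinase that restrains Src kinases, differed by 0.20 (SE 0.0877), Scamp2 by 0.04 (SE 0.0756) and Mpi, the mannose phosphate isomerase, by 0.07 (SE 0.0912). On the Cyp1a1 side, the kinase gene Clk3 differed by 0.11 (SE 0.0525), Arid3b by 0.16 (SE 0.182) and Ubl7 by -0.08 (SE 0.037). Of these 6 genes 5 were higher, against 57.6% of all genes, and 0 passed in limma (smallest adjusted p = 0.59). At an unadjusted p under 0.05 in limma 0 qualified, against 8.69% of all genes. Groups did not overlap in 0 of the 6, against 1.85% of all genes separated upwards and 3% downwards.

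Cyp1b1 encodes the remaining member of P450 family 1, a receptor target in many tissues outside the liver. It read 0.07, 0.04, -0.09 and -0.04 on WT replicates 1 to 4, and 0.10, 0.05, -0.04 and 0.04 on IE-Cpr-null replicates 1 to 4. The groups overlapped almost completely, and the difference was 0.04 (SE 0.05, 95% interval -0.08 to 0.16, limma adjusted p = 0.86). The upper bound of this interval lay below the lower bounds of Cyp1a1 (1.31) and Cyp1a2 (4.10). Cyp1b1 ranked the arrays in the same order as the median of all probe sets per array. That median ran from 0.04 on IE-Cpr-null replicate 1 to -0.03 on WT replicate 3. Centred values cannot show whether Cyp1b1 was detected, so its narrow interval does not show that an expressed gene was unchanged.

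The receptor gene itself, Ahr, had probe sets that differed in sign and not beyond their spread. The first, by order of identifier, read 0.10, 0.04, -0.26 and -0.04 on WT replicates 1 to 4 and -0.001, -0.31, -0.30 and 0.21 on IE-Cpr-null replicates 1 to 4. Its difference was -0.06 (SE 0.135, 95% interval -0.37 to 0.26, limma adjusted p = 0.879). The second read from -0.06 to 0.19 in IE-Cpr-null pools and from -0.09 to 0.04 in WT pools, a difference of 0.05 (SE 0.0608, 95% interval -0.09 to 0.19, adjusted p = 0.86). Both were highest on IE-Cpr-null replicate 4, and the groups overlapped in both.

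Tiparp encodes an ADP-ribosyltransferase that is induced by the receptor and represses it. Its 3 probe sets differed by 0.03, 0.01 and 0.002 (SE 0.165, 0.132 and 0.146). The mean of the probe sets read 0.06, 0.02, 0.03 and -0.13 on WT replicates 1 to 4, and -0.34, 0.34, -0.12 and 0.17 on IE-Cpr-null replicates 1 to 4. The IE-Cpr-null pools lay on both sides of the WT pools, with an SD 2.41 to 4.2 times that of WT, and all 3 probe sets had the same order of IE-Cpr-null arrays: replicate 2 highest, then 4, 3 and 1. Replicate 2 was also the array with the highest Cyp1a1 and Cyp1a2 values and replicate 1 the one with the lowest Cyp1a1 value. This is an order within 4 pools. Without replicate 2 the Tiparp differences were -0.08, -0.10 and -0.11, and with array weights 0.29, 0.13 and 0.17 (lowest limma adjusted p = 0.17).

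Nqo1 and Aldh3a1 encode a quinone reductase and an aldehyde dehydrogenase, targets that the receptor shares with the oxidant-sensing factor Nrf2. Nqo1 read -0.31, 0.80, -0.26 and 0.26 on WT replicates 1 to 4 and 0.13, -0.02, -0.69 and -0.60 on IE-Cpr-null replicates 1 to 4. The lowest values were those of IE-Cpr-null replicates 3 and 4, but the groups overlapped, and the WT spread was one of the widest in the table (SD 0.52, above that of 97.4% of probe sets). The Nqo1 difference was -0.42 (SE 0.297, 95% interval -1.11 to 0.27, limma adjusted p = 0.86), opposite in sign to those of the Cyp1a genes. Over 18 settings it ran from -0.75 with array weights (limma adjusted p = 0.0853, the lowest of the range) to -0.19 without WT replicate 2, and it was -0.56 without WT replicate 1. It passed in 0 of them. Aldh3a1 read -0.06 to 0.06 in WT pools and -0.01 to 0.10 in IE-Cpr-null pools, a difference of 0.04 (SE 0.0431, 95% interval -0.06 to 0.14, adjusted p = 0.86). It ranked the arrays in the order of their medians except for WT replicates 3 and 4 (-0.04 and -0.06), which changed places. As for Cyp1b1, whether it was detected is not known.

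Nfe2l2, which encodes Nrf2, read 0.06, 0.18, -0.17 and -0.06 on WT replicates 1 to 4 and -0.25, 0.10, 0.18 and 0.05 on IE-Cpr-null replicates 1 to 4. The groups overlapped and the difference was 0.02 (SE 0.111, 95% interval -0.24 to 0.28, limma adjusted p = 0.955).

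Set side by side, the Cyp1a genes and the other targets did not move by comparable amounts. The mean of Cyp1a1 and Cyp1a2 minus the mean of the other 5 measured genes of the comparison (Cyp1b1, Tiparp, Nqo1, Aldh3a1 and Nfe2l2) was 0.29, -0.32, 0.15 and -0.02 on WT replicates 1 to 4 and 3.31, 4.74, 3.19 and 3.88 on IE-Cpr-null replicates 1 to 4. The groups did not overlap, and the difference between them was 3.75, nearly all of it from the Cyp1a mean (3.69 higher) and little from the other genes (-0.06). This is a description without a test, because the genes were chosen with earlier results of these data known. Over the 9 probe sets of genes other than Cyp1a1 and Cyp1a2, including those of Ahr, the median absolute difference was 0.04 and the highest upper bound of a 95% interval was 0.42, for Tiparp. That bound lies below the lower bounds of both Cyp1a genes, and the lowest lower bound was -1.11, for Nqo1. Setting these bounds side by side is part of the same description and not a test. Over all 11 probe sets the median difference was 0.03, and over all 18443 it was 0.02.

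**Figure D3:**
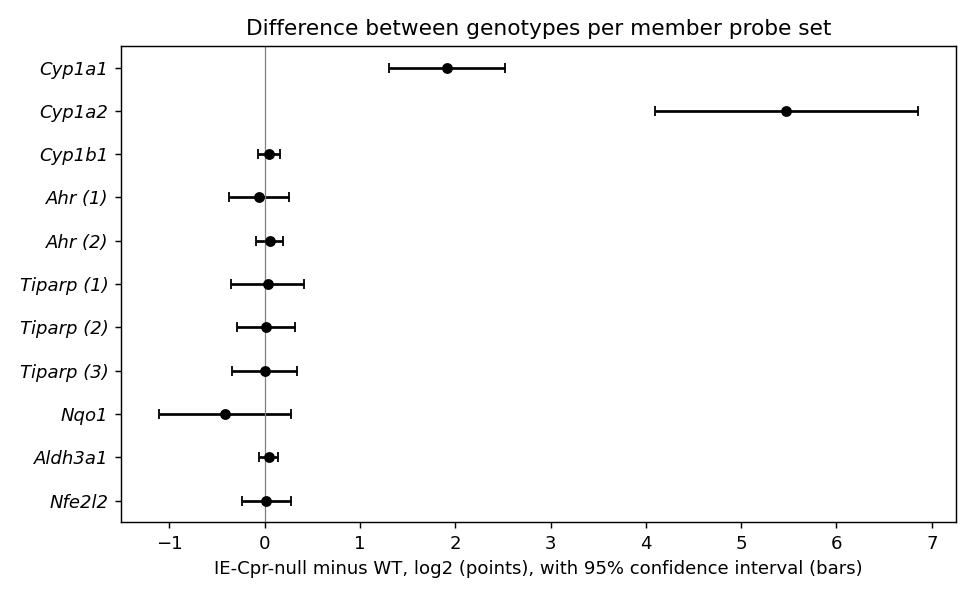
Difference between IE-Cpr-null and WT (points, log2) with its 95% confidence interval from limma (bars) for each of the 11 member probe sets, n = 4 pools per genotype. The intervals of Cyp1a1 (1.31 to 2.52) and Cyp1a2 (4.10 to 6.85) lie to the right of all others, which include 0.

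Genes of the wider pathway were taken from lists and read as the mean of each gene's probe sets. In the receptor complex and its coactivators, 6 of 9 listed genes were measured and 0 passed in either direction in limma, against 0.0288% of all genes called as higher and 0% called as lower. At an unadjusted p under 0.05, 2 of the 6 qualified, Ncoa1 and Hsp90aa1, against 8.69% of all genes. The median difference was 0.09, against 0.02 over all genes. Ncoa1, a coactivator gene, read -0.02 to 0.07 in WT pools and -0.30 to -0.11 in IE-Cpr-null pools, a difference of -0.20 without overlap (SE 0.0482, adjusted p = 0.276). Such separation downwards was found in 3% of all genes. Hsp90aa1, a chaperone that holds the receptor in the cytoplasm, differed by 0.30 (SE 0.114, adjusted p = 0.504). It was highest on IE-Cpr-null replicate 1 (0.65), the array richest in muscle transcripts, but read 0.01 on WT replicate 2, the next richest. The part of muscle transcripts in Hsp90aa1 was not tested. Arnt, the receptor's partner, differed by -0.01 (SE 0.0407, 95% interval -0.11 to 0.08).

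Of 9 further receptor targets 4 were measured, 0 passed in limma (1 at an unadjusted p under 0.05, Scin, against 8.69% of all genes), 2 were higher and 2 lower, and the median difference was -0.16. Scin, which encodes the actin-severing protein scinderin, read -0.09 to 0.12 in WT pools and -0.59 to -0.15 in IE-Cpr-null pools. This was a difference of -0.33 without overlap (SE 0.0986, adjusted p = 0.391). Of all genes, 3% were separated downwards in this way. Gsta2, a glutathione transferase gene of the classical receptor battery, differed by -0.95 (SE 0.613, adjusted p = 0.774), with WT arrays from -1.01 to 1.96 that enclosed all IE-Cpr-null arrays except the lowest (-1.33). Xdh, the xanthine dehydrogenase gene, differed by 0.05 (SE 0.102) and Cyp2s1, a P450 gene induced by the receptor, by 0.0003 (SE 0.0751). In 0 of these 4 targets did the IE-Cpr-null arrays lie above all WT arrays, a separation found in 1.85% of all genes.

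Of the 13 listed Nrf2 targets and its repressor Keap1, 11 were measured and 0 passed in limma (1 at an unadjusted p under 0.05, Abcc2, against 8.69% of all genes), with 4 higher, 7 lower and a median difference of -0.05. Abcc2, an efflux transporter gene, read -0.12 to 0.44 in WT pools and -0.46 to -0.12 in IE-Cpr-null pools (difference -0.38, SE 0.138, adjusted p = 0.486). Its groups touched without overlap, a downward separation found in 3% of all genes. Srxn1, the sulfiredoxin gene, differed by 0.12 (SE 0.0817), Hmox1, the inducible haem oxygenase gene, by 0.06 (SE 0.0487) and Keap1 by -0.06 (SE 0.0759).

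**Figure D4:**
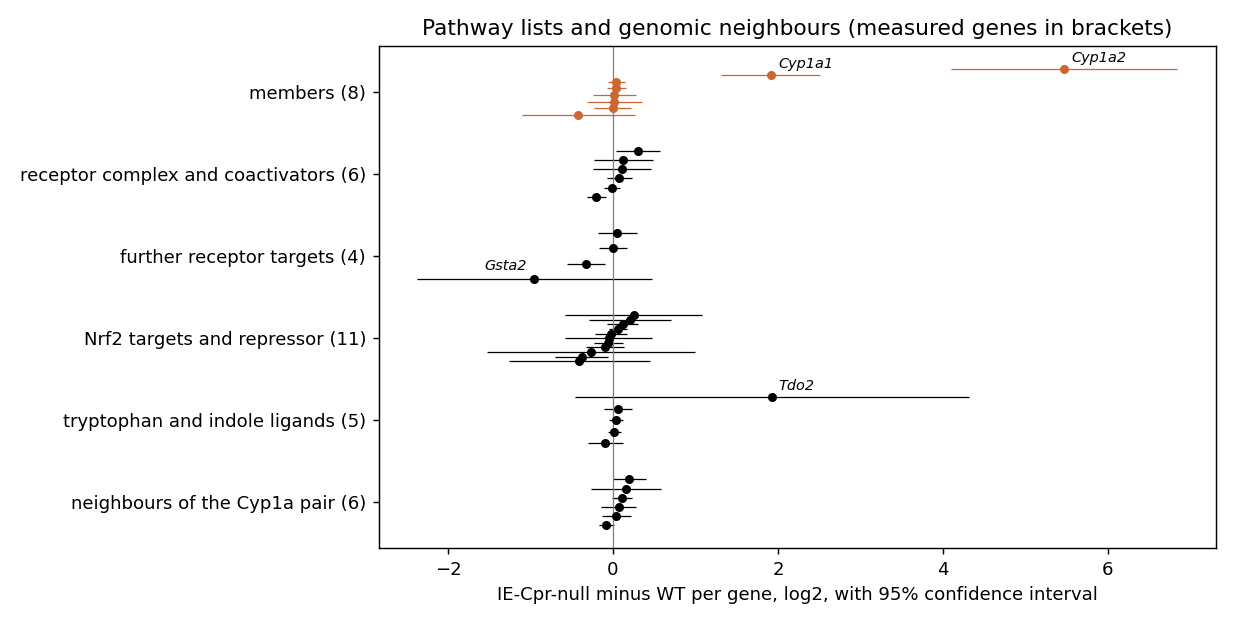
Difference between IE-Cpr-null and WT per gene (points, log2, each gene as the mean of its probe sets) with its 95% confidence interval (lines) for the member genes (orange), 4 pathway lists and the 6 nearest measured genes around the Cyp1a pair, with names for genes beyond 0.9 in either direction. Apart from Cyp1a1 and Cyp1a2, the named genes Gsta2 (-0.95) and Tdo2 (1.92) have intervals that include 0.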

How the data were processed

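Enterocyte RNA from 8 mice of each genotype was pooled by 2 and hybridised to 8 single-colour arrays. The titles gave each group and replicate number; the labels give no batch. The authors deposited log2 values per probe set, made with GCRMA per the submitters' processing notes (its version is not given in the sources used here). They are also centred: the WT median was 0 in every probe set. Centring removes expression levels, so no dim probe set was left out, but does not alter a difference between groups. The array's platform annotation names 16689 probe sets with 1 symbol (10401 genes), 616 with several and 1138 with none.

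Each probe set was tested with limma 3.58.1 in R 4.3.3 (lmFit and eBayes, two-sided, no block), with Benjamini-Hochberg adjustment over 18443 probe sets and a threshold of 0.05. Pathway, neighbour and marker genes were tested as means of their probe sets over 10401 genes. Named genes were all members, the 2 list genes of smallest p and up to 2 more per list, the 3 nearest measured neighbours on each side, and the 3 probe sets closest to each Cyp1a gene by root mean square difference. Members and lists were chosen with earlier results of these data known. Alternatives were other normalizations, weights, a robust prior, a replicate block, other sets of features and arrays left out. Scripts were tested on simulated data.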

Additional observations from a re-analysis of the deposited data

How the results depend on the processing

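The Cyp1a2 and Cyp1a1 differences kept their direction in all 17 and 16 alternatives run for them. Cyp1a2 passed in limma in 5 of 18 settings and Cyp1a1 in 3 of 17. Among members, 0 were called as higher in the reported setting, 2 with array weights and 2 when probe sets with an SD at or below the median were dropped (so fewer were tested), 1 without IE-Cpr-null replicates 2 and 3, and 0 to 1 with single arrays left out; 0 were called as lower in any setting. Over all probe sets 4 were called in the reported setting, 1 with quantile normalization, 741 with array weights, 7 with that filter on SD, and 1 to 16 with single arrays left out. Array weights gave IE-Cpr-null replicate 4 a weight of 6.49 and replicate 1 one of 0.329. Quantile normalization acts on centred values and lowered the Cyp1a difference from the other targets to 2.86, against 3.43 to 3.95 with single arrays left out; Cyp1a2 was then 3.80 and Cyp1a1 1.80. The cause was not tested. Leaving out probe sets with identifiers ending in _a_at, _s_at or _x_at removed the Cyp1a1 probe set (_a_at). The comparison of the Cyp1a mean with the other targets was therefore not made there. This ending alone does not say that the Cyp1a1 probes match another gene.

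With the replicate number as a block, 1 probe set was called and no member (Cyp1a2 adjusted p = 0.316, Cyp1a1 0.397). The arrays share only a number: deviations of same-numbered arrays correlated at -0.0579, -0.041, 0.256 and 0.131, and 2 of 4 numbers had arrays that correlated best with each other.

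Of 182 member values under alternatives, 23 turned sign, all with an adjusted p of at least 0.418 and a size of at most 0.167, in 5 probe sets of Ahr, Tiparp and Nfe2l2. With single arrays left out, all differences ran from -0.1637 to 0.0095 for the first Ahr probe set, from -0.0777 to 0.1634, -0.1023 to 0.1093 and -0.1051 to 0.1281 for those of Tiparp, and from -0.0393 to 0.1082 for Nfe2l2. Without IE-Cpr-null replicates 2 and 3 the turned values were 0.1462 for Ahr, -0.0542, -0.0984 and -0.0959 for Tiparp and -0.104 for Nfe2l2. Array weights gave 0.167 for Ahr, and median centring -0.0109 for the third Tiparp probe set. Without WT replicate 2 and IE-Cpr-null replicate 1, 0 turned, with 0.148, 0.1243 and 0.1501 for Tiparp and 0.1662 for Nfe2l2. Signals over background are unknown in centred values, which limits every fold.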

Other observations

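Genes that make or consume tryptophan-derived receptor ligands were read beside the Cyp1a genes. Of 9 listed, 5 were measured and 0 passed in limma (0 also at an unadjusted p under 0.05), with 4 higher, 1 lower and a median difference of 0.03. Tdo2, the hepatic tryptophan dioxygenase gene, differed by 1.92 (SE 1.03, adjusted p = 0.693) and read 4.74 and 2.88 on IE-Cpr-null replicates 2 and 3, the arrays rich in hepatocyte transcripts, against 0.06 and 0.02 on replicates 1 and 4. Ido1, the inducible dioxygenase gene of the intestine, differed by 0.06 (SE 0.0729), its relative Ido2 by 0.02 (SE 0.0324), Aadat, a kynurenine aminotransferase gene, by 0.03 (SE 0.0367) and Afmid, the kynurenine formamidase gene, by -0.09 (SE 0.0922).

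The probe sets whose log2 values lay closest to those of Cyp1a1 over the 8 arrays belonged to Acta1, the skeletal actin gene (root mean square difference 0.28), Tmigd1 (0.38) and Slc34a2, a phosphate transporter gene (0.43). For Cyp1a2 no probe set came as close: the nearest were both probe sets of the metallothionein gene Mt1 (1.51 and 1.97) and that of Ubd, a ubiquitin-like modifier gene (2.13). These distances are descriptions over arrays of the same 8 pools.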
